A study of Mus musculus with 12 samples.

Results

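The 10 genes described here, Cdh9, Sema3c, Efnb2, St8sia4, Sned1, Pim2, Dapp1, Slc27a2, Aoah and AW551984, were selected on the measured difference between all-trans retinoic acid (atRA) and vehicle in mouse F9 cells kept in cycloheximide: their transcripts read lower with atRA. They are 10 of 16509 genes named on the array, and their 19 probe sets are among 37600 that were tested. Because lower values with atRA in WT or RARaKO arrays chose them, their responses to atRA are given as descriptions. Calls made on those responses are not read as tests. The comparison between genotypes, averaged over vehicle and atRA, is not named in that rule and was tested. The genes were, however, chosen with earlier results of these data known. The cells were F9, a mouse teratocarcinoma line, as wild type (WT) and as cells labelled RARaKO, whose name points to a lost Rara, the gene of receptor alpha for retinoic acid. The labels do not say how that knockout was made or whether it is 1 clone. All 4 groups, WT vehicle, WT atRA, RARaKO vehicle and RARaKO atRA, were plated 16 h before treatment, received cycloheximide at 1 µg/ml for 30 min, and then 1 µM atRA or 0.1% ethanol for 7.5 h, so that every array, controls included, comes from cells held 8 h in cycloheximide. Each group had 3 arrays, numbered as sets 2, 3 and 4, with 4 arrays to a set. The labels do not say that sets were separate cultures, so p-values measure only how these arrays vary, and that variation may be technical.

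Retinoic acid enters the cell and binds retinoic acid receptors, which sit on DNA as partners of retinoid X receptors, often at direct repeats of a short hexamer. Ligand turns many such genes on, and lowers the transcripts of others. Cycloheximide stops protein synthesis, so a transcript that changes in its presence does not need a newly made protein to do so, although the drug itself also alters the stability of some mRNAs. F9 is an embryonal carcinoma line that leaves its undifferentiated state under retinoids. The genes chosen here encode products of cell adhesion and guidance (Cdh9, Sema3c, Efnb2, St8sia4), extracellular matrix (Sned1), signalling (Pim2, Dapp1) and lipid handling (Slc27a2, Aoah), and AW551984 is a gene known by a clone name to which no role is given here.

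The 250 bases before the annotated start of each gene were read in the direction of transcription from RefSeq (build GRCm38.p6), where all 10 genes were found, AW551984 with 3 starts. Both strands were searched for the core hexamer of retinoic acid receptors, spelled AGGTCA in its usual form, with AGTTCA as a variant and with GGGTCA or else the form GGTTCA counted too. The hexamer occurred in 5 of the 10 genes (Sned1, Slc27a2, Dapp1, Efnb2 and Aoah), beside 35.1% of 13164 windows of genes measured on the array and 38.4% of all 27025 windows. Slc27a2 was the member with more than 1 match, at 220 to 215 and at 160 to 155 bases before its start. No member had a direct repeat of the hexamer with a spacer of 1, 2 or 5 bases, found in 0.159%, 0.178% and 0.0888% of all windows. The 4 windows printed next are those of Cdh9 and Sema3c, the genes furthest below vehicle in WT cells, which hold no match, and of Slc27a2 and Dapp1, which do. Capitals mark the matches, all of them on the opposite strand, so that they read as TGACCT or TGACCC.
Cdh9, chr15:16728665-16728914, plus strand: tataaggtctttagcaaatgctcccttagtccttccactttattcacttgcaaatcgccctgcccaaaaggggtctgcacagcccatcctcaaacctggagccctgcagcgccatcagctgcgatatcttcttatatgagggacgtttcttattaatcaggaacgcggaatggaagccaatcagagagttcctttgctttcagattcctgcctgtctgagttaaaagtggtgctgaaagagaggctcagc
Sema3c, chr5:17574566-17574815, plus strand: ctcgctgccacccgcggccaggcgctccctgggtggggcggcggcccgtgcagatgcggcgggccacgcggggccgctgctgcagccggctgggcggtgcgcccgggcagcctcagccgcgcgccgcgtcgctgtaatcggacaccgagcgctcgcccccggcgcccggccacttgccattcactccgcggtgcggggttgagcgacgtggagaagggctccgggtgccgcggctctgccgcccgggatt
Slc27a2, chr2:126552774-126553023, plus strand: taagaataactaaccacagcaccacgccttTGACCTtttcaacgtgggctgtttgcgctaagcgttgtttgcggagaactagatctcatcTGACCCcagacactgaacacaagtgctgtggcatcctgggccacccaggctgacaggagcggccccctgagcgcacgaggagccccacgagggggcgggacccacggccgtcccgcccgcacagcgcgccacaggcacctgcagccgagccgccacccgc
Dapp1, chr3:137981550-137981799, minus strand: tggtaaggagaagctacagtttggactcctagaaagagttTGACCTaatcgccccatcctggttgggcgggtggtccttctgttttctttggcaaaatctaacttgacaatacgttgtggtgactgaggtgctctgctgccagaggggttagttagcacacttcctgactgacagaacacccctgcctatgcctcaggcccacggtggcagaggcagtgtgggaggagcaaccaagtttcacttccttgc
The windows differ in composition as well. Sema3c is 78.4% G or C with a CpG ratio (observed over expected) of 1.02, against 48% and 0.42 for Cdh9 and 52.4% and 0.234 for Dapp1. A ratio of at least 0.6 was found in 6 of the 10 genes and in 57% of windows of measured genes. GGGCGG occurred in 7 members (52.9% of windows of measured genes and 32.9% of all), CCAAT in 5 (35.8% and 34.5%), TATAAA in Efnb2 alone (8% and 13%) and CACGTG in AW551984 alone (7.81% and 6.05%), with the first window used for AW551984. These matches describe the letters of the windows and were not tied to binding. The genes lie on 9 chromosomes, with Sned1 and St8sia4 both on chromosome 1.

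Values were read as log2 and are given relative to each probe set's own median over the 12 arrays, so that differences between groups can be read while levels cannot, and no gene's level can be set against another's. A coarse class of the lost level, recovered from the spacing of the numbers, put the chosen probe sets of 7 genes at a median of at least 8. Those of St8sia4, Dapp1 and AW551984 lay between 4 and 8. The rule that chose 1 probe set per gene prefers the higher class, and over all genes it put 53.7% and 46.2% there. All 19 probe sets of the members split into 8 and 11, beside 39.3% and 60.3% of all probe sets. Rara, the targeted gene, was higher rather than lower in the arrays labelled RARaKO, by 0.63 ± 0.06 averaged over vehicle and atRA (limma, adjusted p = 4.55e-05). Its means were -0.60 ± 0.14 (SD, n = 3) in WT vehicle, -0.16 ± 0.11 in WT atRA, 0.30 ± 0.02 in RARaKO vehicle and 0.20 ± 0.13 in RARaKO atRA. Every direction drawn from genotype therefore rests on the label. Of 12 measured markers of F9 cells 12 were in the class of at least 8, as were 9 of 11 for extraembryonic endoderm. The counts were 1 of 8 for fibroblasts, 1 of 10 for blood and immune cells, and 2 of 7 each for endothelium and neurons. Among the probe sets chosen to stand for each gene on the array, 53.7% were in this class. Known retinoic acid targets responded in both genotypes, with 9 of 15 called higher in WT and 8 of 15 in RARaKO (limma, adjusted p under 0.05), beside 0.484% and 0.215% of all probe sets. Their median responses were 0.94 and 0.74. Those with the smallest p in both genotypes were Cyp26a1, which breaks retinoic acid down (1.35 ± 0.08 in WT and 1.38 ± 0.08 in RARaKO), the receptor gene Rarb (1.35 ± 0.09 and 0.95 ± 0.09), Cdx1 (1.74 ± 0.13 and 1.45 ± 0.13) and Hoxb5 (1.63 ± 0.13 and 1.25 ± 0.13). Between genotypes 3 targets were called higher and 4 lower in RARaKO. Over all genes 12.2% of the probe sets chosen to stand for a gene were called in either direction, and 6.95% lower. The targets' calls were led by Hoxb5 (-0.97 ± 0.09), Hoxb1 (-0.84 ± 0.08), Stra8 (0.51 ± 0.07) and Meis2 (-0.71 ± 0.12, lost without set 3 at 0.0588). Without set 3 the RARaKO calls of Rarb (0.106), Cdx1 (0.12) and Hoxb5 (0.127) were lost, as were that of Rarb without set 2 (0.0696) and that of Hoxb5 without set 4 (0.0807). No marker of F9 cells, extraembryonic endoderm, fibroblasts, blood, endothelium or neurons was called lower with atRA in either genotype (limma), while between 0 and 2 members of each list had an unadjusted p under 0.05 in a response. The fibroblast marker Pdgfrb was called higher in both (0.50 ± 0.08, adjusted p = 0.0175, and 0.52 ± 0.08, adjusted p = 0.0226), each call lost without 1 of 5 of the 6 arrays (up to 0.0962 and 0.115). A decline in the number of expressing cells and in RNA per cell cannot be told apart in these bulk samples.

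All 10 chosen genes read lower with atRA in both genotypes, each with its 3 atRA arrays below its 3 vehicle arrays. The genes were picked for lower values in these same arrays, so nothing is read from this separation, which held for 7.4% of all probe sets in WT and 5.4% in RARaKO. The median difference, atRA minus vehicle, was -0.57 in WT (from -0.37 for Aoah to -0.80 for Cdh9) and -0.46 in RARaKO (from -0.27 for Sned1 to -0.71 for Cdh9), while the medians over all probe sets were -0.01 and -0.00. Taken set by set, 30 of 30 differences were below 0 in each genotype, between -0.98 and -0.25 in WT and between -0.85 and -0.095 in RARaKO. At an adjusted p under 0.05 in the same contrasts, also given as a description, 9 of the 10 were called lower in WT (all but Dapp1), where 0.0851% of all probe sets were, and 3 in RARaKO (Cdh9, Dapp1 and Aoah), where 0.0479% were. The same values chose the genes, so nothing is read from these calls or from their number in WT against RARaKO. The calls rested on all arrays together. Without 1 WT array 2 to 6 of the 10 were called in WT, fewest without WT atRA replicate 3, and AW551984 and Sned1 were called each time; without a set 0 or 1 was. In RARaKO 2 were called without atRA replicate 2 or 4, and 0 when any other of its arrays or any set was left out, or in a fit of its 6 arrays alone. Ranked from the most negative difference among the 16509 genes, Cdh9, Sema3c, AW551984 and St8sia4 held places 1 to 4 in WT, and Aoah stood at 75. The mean 5′ minus 3′ signal of 4 control transcripts, a measure of RNA integrity, also set WT vehicle apart, at -0.123 to -0.0844 against -0.0248 to 0.0178 in WT atRA, -0.0227 to 0.132 in RARaKO vehicle and 0.00122 to 0.0897 in RARaKO atRA, and its part in the WT responses was not tested.

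**Figure D1:**
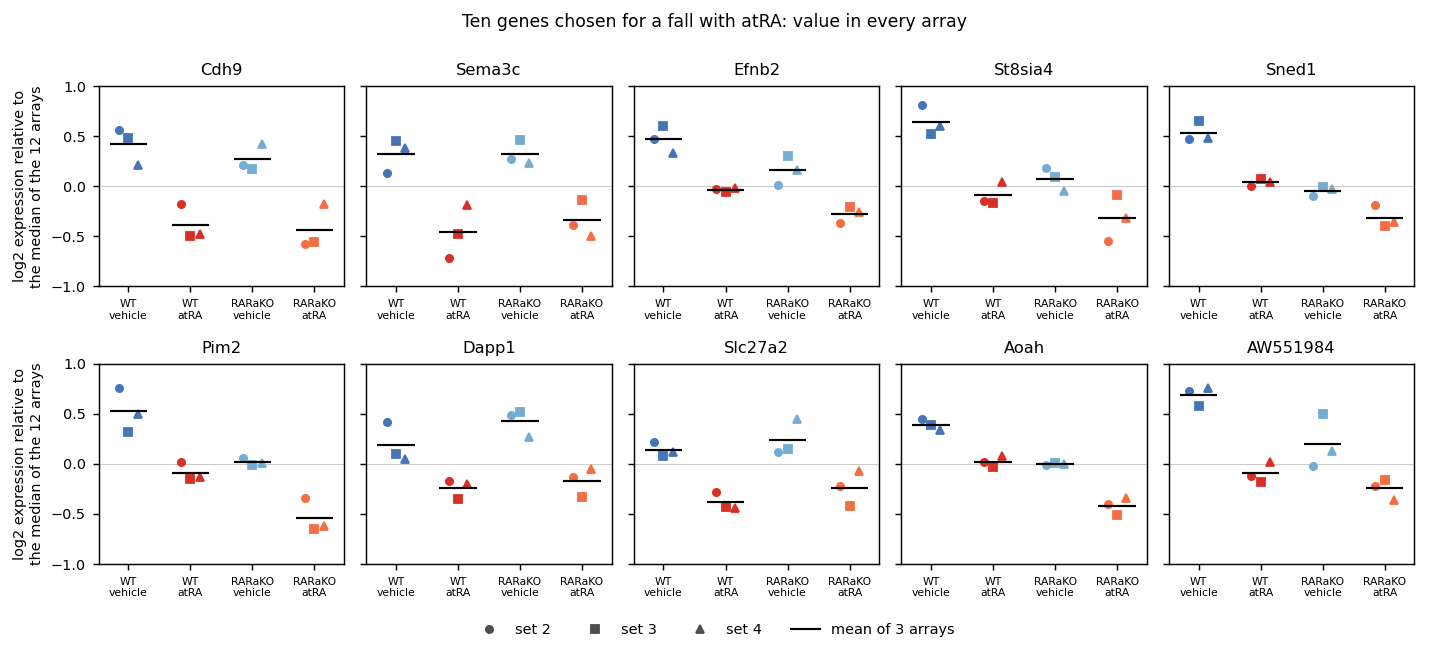
Expression of the chosen probe set of each of the 10 genes in all 12 arrays, as log2 relative to the median of the 12 arrays, by group (3 arrays each); symbols give the set and black lines the group means. In every panel the 3 atRA points lie below the 3 vehicle points of the same genotype, in the arrays that the genes were picked on. For Efnb2, Pim2, Sned1 and Aoah the RARaKO points lie below the WT points of the same treatment.

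Cdh9 encodes a classical cadherin, a calcium-dependent adhesion molecule between cells, and had the most negative difference of any gene in WT cells. Its WT vehicle arrays read 0.56, 0.49 and 0.21 in sets 2, 3 and 4 (the order used throughout) and its WT atRA arrays -0.18, -0.50 and -0.48. In RARaKO the vehicle arrays read 0.22, 0.18 and 0.42 and the atRA arrays -0.58, -0.56 and -0.18. The nearest arrays of vehicle and atRA were 0.39 apart in WT and 0.36 apart in RARaKO, and the array nearest to the other group came from set 4 in WT vehicle and RARaKO atRA and from set 2 in WT atRA. The difference was -0.80 ± 0.13 in WT, or 1.74-fold lower, and -0.71 ± 0.13 in RARaKO, or 1.64-fold lower (± gives the standard error of the fit, 3 arrays per group). Thus 57.3% and 61.1% of the vehicle signal was left. Cdh9 was read by 1 probe set.

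Of 17 other cadherins and the catenins that bind them, none was called with atRA in either direction in WT or in RARaKO (limma), and 3 and 4 had an unadjusted p under 0.05. Their median differences were -0.05 and -0.08. Between genotypes 1 of the 17 was called higher and 3 lower in RARaKO, beside 12.2% of chosen probe sets over all genes called in either direction. Cdh2 (N-cadherin) was lower in RARaKO by an average of -0.55 ± 0.07 (limma, adjusted p = 4.43e-04) and Cdh5, the cadherin of endothelium, higher by 0.50 ± 0.08 (adjusted p = 0.00132). Cdh10 and Ctnna1 were also called lower, at -0.33 ± 0.08 (adjusted p = 0.0235) and -0.15 ± 0.04 (adjusted p = 0.0393), but these calls were lost when 1 of 5 and 1 of 10 of the 12 arrays was left out (adjusted p up to 0.0643 and 0.104).

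Sema3c encodes a secreted semaphorin, a guidance cue that acts through neuropilin and plexin receptors. Its WT vehicle arrays read 0.14, 0.45 and 0.38 and its WT atRA arrays -0.72, -0.47 and -0.19. In RARaKO they read 0.27, 0.46 and 0.23 in vehicle and -0.38, -0.14 and -0.49 in atRA. The vehicle arrays of both genotypes overlapped, and the spread among atRA arrays was the widest of any member in WT. The difference was -0.78 ± 0.13 in WT (1.72-fold lower) and -0.66 ± 0.13 in RARaKO (1.58-fold lower). A second probe set of Sema3c gave -0.32 ± 0.12 and -0.35 ± 0.12, and its RARaKO groups overlapped.

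Among the 29 other semaphorins, neuropilins and plexins measured, 1 was called with atRA, and it moved the other way. Nrp1, a co-receptor for secreted semaphorins, read -0.65, -0.54 and -0.50 in WT vehicle and 0.57, 0.39 and 0.75 in WT atRA. It rose 2.19-fold in WT (1.13 ± 0.11, limma, adjusted p = 3.64e-04). In RARaKO it read -0.62, -0.41 and -0.27 in vehicle and 0.27, 0.30 and 0.55 in atRA, a 1.75-fold rise (0.81 ± 0.11, adjusted p = 0.00858). No semaphorin gene was called in either response. The list's medians were 0.00 in WT and 0.03 in RARaKO. Between genotypes 2 of the 29 were called higher and 2 lower in RARaKO, near the 12.2% of chosen probe sets over all genes called in either direction. Sema3e (0.68 ± 0.10, adjusted p = 6.25e-04) and Nrp2 (0.65 ± 0.14, adjusted p = 0.0105) were higher in RARaKO, and Plxna1 (-0.23 ± 0.05, adjusted p = 0.0101) and Plxna3 (-0.17 ± 0.04, adjusted p = 0.0259) lower. The call of Plxna3 was lost without 1 of 6 of the 12 arrays (adjusted p up to 0.0722). Leaving out a whole set ended the calls of Nrp1 in RARaKO (0.185, 0.3 and 0.0629 without sets 2, 3 and 4, and 0.0953 in its 6 arrays alone), of Nrp2 (0.0721 and 0.178 without sets 2 and 3) and of Plxna1 (0.107 and 0.164 without sets 3 and 4), while Nrp1 in WT and Sema3e stayed called in every setting.

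Efnb2 encodes ephrin-B2, a membrane-bound ligand that signals to Eph receptors on the neighbouring cell. The WT vehicle arrays read 0.48, 0.60 and 0.33 and the WT atRA arrays -0.03, -0.06 and -0.01. In RARaKO the values were 0.01, 0.30 and 0.16 in vehicle and -0.37, -0.21 and -0.26 in atRA. The RARaKO vehicle arrays thus lay between the WT groups, and the 3 WT atRA arrays lay close together. The differences were -0.50 ± 0.09 (1.42-fold lower) and -0.44 ± 0.09 (1.36-fold lower). Of its 3 other probe sets, the ones at -0.43 ± 0.09 and -0.38 ± 0.08 in WT and -0.46 ± 0.09 and -0.26 ± 0.08 in RARaKO ran the same way, and the last gave 0.14 ± 0.13 and -0.12 ± 0.13 with overlapping groups. None of 18 other ephrins and Eph receptors was called in either response (limma), with 3 in WT and 2 in RARaKO at an unadjusted p under 0.05 and medians of 0.00 in both. Epha7, an Eph receptor, was lower in RARaKO on average by -0.35 ± 0.08 (adjusted p = 0.013). This was the list's single call between genotypes, beside 12.2% of chosen probe sets over all genes. The call was lost without set 3 (0.0839), without set 4 (0.079) and on averaging its probe sets (0.0826).

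St8sia4 encodes a polysialyltransferase, which builds polysialic acid chains on the neural cell adhesion molecule and so loosens contacts between cells. It read 0.81, 0.52 and 0.60 in WT vehicle and -0.14, -0.17 and 0.04 in WT atRA. In RARaKO it read 0.18, 0.095 and -0.04 in vehicle and -0.55, -0.08 and -0.31 in atRA. The WT groups were parted by 0.48, while the RARaKO groups came within 0.04 of each other, at the vehicle array of set 4 and the atRA array of set 3. The difference was -0.73 ± 0.12 in WT (1.66-fold lower) and -0.39 ± 0.12 in RARaKO (1.31-fold lower). A second probe set showed nearly no difference, -0.07 ± 0.10 and -0.06 ± 0.10, so the value of this gene rests on 1 probe set. None of 13 other genes of polysialic acid and sialylation was called with atRA (limma), with 1 and 3 at an unadjusted p under 0.05 and medians of -0.03 and -0.05. Between genotypes 2 of the 13 were called lower and 1 higher in RARaKO, beside 12.2% of chosen probe sets over all genes called in either direction. Neu1, the lysosomal sialidase (-0.37 ± 0.08, adjusted p = 0.0144), and Slc35a1, which carries CMP-sialic acid into the Golgi (-0.18 ± 0.04, adjusted p = 0.0204), were lower in RARaKO, and St8sia1 (0.36 ± 0.10, adjusted p = 0.0297) was higher. The call of Neu1 was lost without set 2 (0.113), set 3 (0.0554) or set 4 (0.05) and on averaging its probe sets (0.0521). Without WT atRA replicate 4 the call of Slc35a1 was lost (0.0561), and that of St8sia1 was lost without 1 of 7 of the arrays (up to 0.0728).

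Sned1 encodes a matrix protein with sushi, nidogen-like and EGF-like domains. Its WT vehicle arrays read 0.47, 0.65 and 0.48 and its WT atRA arrays 0.01, 0.08 and 0.04. The RARaKO arrays gave -0.09, -0.01 and -0.03 in vehicle and -0.19, -0.39 and -0.35 in atRA. Even in vehicle the RARaKO arrays lay below the WT arrays that had received atRA. The difference was -0.49 ± 0.07 in WT (1.41-fold lower) and -0.27 ± 0.07 in RARaKO (1.21-fold lower), the difference nearest 0 in RARaKO among the 10 genes. None of 18 genes of basement membrane and fibronectin-type matrix was called with atRA (limma), with 1 and 0 at an unadjusted p under 0.05 and medians of -0.03 and -0.00. Itgb1, an integrin subunit gene, was the list's single call between genotypes, beside 12.2% of chosen probe sets over all genes. It differed by -0.20 ± 0.05 (adjusted p = 0.0252), a call lost without 1 of 5 of the 12 arrays (up to 0.0631).

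Pim2 encodes a serine/threonine kinase that promotes survival and is controlled mainly through its amount. In WT it read 0.75, 0.32 and 0.50 in vehicle and 0.02, -0.15 and -0.13 in atRA. The RARaKO arrays gave 0.06, -0.01 and 0.01 in vehicle and -0.34, -0.65 and -0.62 in atRA. The RARaKO vehicle arrays lay near the WT atRA arrays, and atRA placed RARaKO lowest of all. The difference was -0.61 ± 0.11 in WT (1.53-fold lower) and -0.56 ± 0.11 in RARaKO (1.47-fold lower). Pim2 was read by 1 probe set.

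Its relative Pim1 ran the opposite way. Pim1 read -0.33, 0.03 and -0.16 in WT vehicle and 0.29, 0.60 and 0.50 in WT atRA, with no overlap. It was called higher in WT (0.62 ± 0.11, 1.53-fold, limma, adjusted p = 0.0215), and in RARaKO its difference was 0.43 ± 0.11 (1.34-fold, adjusted p = 0.212). The WT call was lost without WT vehicle replicate 2 (0.105) or 4 (0.0903) and without WT atRA replicate 3 (0.118) or 4 (0.111). The third family member, Pim3, differed by 0.06 ± 0.07 and -0.00 ± 0.07. Of 15 genes around the Pim kinases 1 was higher and 1 lower in WT, and 1 was lower in RARaKO. The lower one was Myc in both, at -0.36 ± 0.07 in WT (adjusted p = 0.0499) and -0.49 ± 0.07 in RARaKO (adjusted p = 0.0146), calls that were lost without 1 of 5 of the 6 arrays in WT (up to 0.245) and 1 of 4 of the 6 in RARaKO (up to 0.0979). Between genotypes 3 of the 15 were called lower and 1 higher in RARaKO, beside 12.2% of chosen probe sets over all genes called in either direction. Myc (-0.41 ± 0.05, adjusted p = 3.15e-04), Jak2 (-0.29 ± 0.06, adjusted p = 0.00636) and Pim1 (-0.30 ± 0.08, adjusted p = 0.0269) were lower in RARaKO and Jak1 (0.26 ± 0.08, adjusted p = 0.043) higher. The calls of Pim1 and Jak1 were lost without 1 of 6 and 1 of 9 of the arrays (up to 0.068 and 0.0955), and that of Jak2 without set 4 (0.124).

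**Figure D2:**
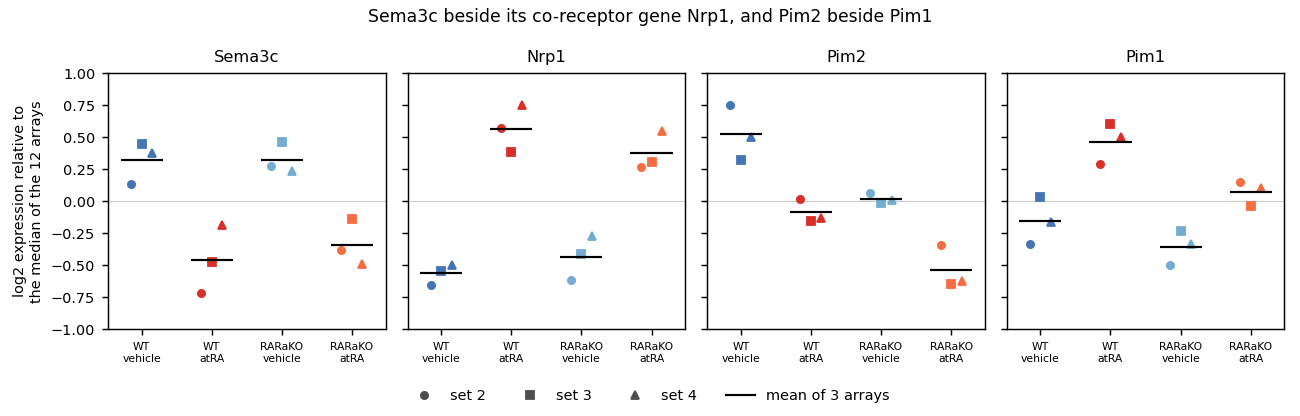
Expression of Sema3c beside the co-receptor gene Nrp1, and of Pim2 beside its relative Pim1, in all 12 arrays. Values are log2 relative to the median of the 12 arrays, by group (3 arrays each). Symbols give the set and black lines the group means. Sema3c and Pim2 lie lower with atRA in both genotypes, while Nrp1 lies higher in both (1.13 and 0.81) and Pim1 lies higher by 0.62 in WT and 0.43 in RARaKO.

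Dapp1 encodes an adaptor that binds 3-phosphoinositides at the membrane, best known downstream of the B cell receptor. It read 0.42, 0.10 and 0.05 in WT vehicle and -0.17, -0.35 and -0.20 in WT atRA. In RARaKO it read 0.49, 0.52 and 0.27 in vehicle and -0.13, -0.33 and -0.05 in atRA. The RARaKO vehicle arrays were the highest of the 4 groups on average, a pattern that Slc27a2 shared. The difference was -0.43 ± 0.11 in WT (1.35-fold lower) and -0.59 ± 0.11 in RARaKO (1.51-fold lower), and no other member was further below vehicle in RARaKO than in WT by as much. A second probe set gave -0.23 ± 0.07 and -0.28 ± 0.07, with separate groups in both genotypes. None of 26 genes of PI3K signalling and phosphoinositide adaptors was called with atRA (limma), with 3 in each genotype at an unadjusted p under 0.05 and medians of 0.00 and -0.01. Between genotypes 2 of the 26 were called lower and 2 higher in RARaKO, near the 12.2% of chosen probe sets over all genes called in either direction. Gab1, a docking protein of receptor signalling, was lower in RARaKO by -2.29 ± 0.05 (adjusted p = 3.94e-11), and Pik3r3, a regulatory subunit of PI3K, higher by 0.57 ± 0.06 (adjusted p = 1.02e-04). Plcg1 (-0.17 ± 0.05, adjusted p = 0.0374) and Pik3r1 (0.28 ± 0.08, adjusted p = 0.0483) were called too, each lost without 1 of 10 of the arrays (up to 0.0901 and 0.113). Of 10 measured blood and immune markers 1, Laptm5, was in the class of at least 8, and it was lower in RARaKO (-0.56 ± 0.09, adjusted p = 0.00172), a call lost without set 3 (0.0675).

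Slc27a2 encodes a very-long-chain acyl-CoA synthetase that also takes up fatty acids. It read 0.22, 0.07 and 0.12 in WT vehicle and -0.28, -0.43 and -0.45 in WT atRA. The RARaKO arrays gave 0.12, 0.15 and 0.44 in vehicle and -0.22, -0.42 and -0.07 in atRA. The WT arrays were tight, and in RARaKO the set 4 arrays were the highest of both groups. The difference was -0.53 ± 0.10 in WT (1.44-fold lower) and -0.47 ± 0.10 in RARaKO (1.39-fold lower), read by 1 probe set. None of 18 other genes of fatty acid uptake and acyl-CoA synthesis was called with atRA (limma), with 3 and 1 at an unadjusted p under 0.05 and medians of -0.03 in both. Between genotypes 2 of the 18 were called higher and 1 lower in RARaKO, near the 12.2% of chosen probe sets over all genes called in either direction. The mitochondrial carnitine transferase gene Cpt2 (0.59 ± 0.07, adjusted p = 1.62e-04) and Fabp3 (0.39 ± 0.11, adjusted p = 0.0325) were higher in RARaKO and the relative Slc27a3 (-0.43 ± 0.07, adjusted p = 0.00233) lower. The call of Fabp3 was lost without 1 of 8 of the arrays (up to 0.0773).

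Aoah encodes acyloxyacyl hydrolase, which inactivates bacterial lipopolysaccharide by removing acyl chains. It read 0.45, 0.39 and 0.34 in WT vehicle and 0.02, -0.03 and 0.08 in WT atRA. In RARaKO it read -0.01, 0.0049 and -0.0049 in vehicle and -0.40, -0.51 and -0.34 in atRA. The groups lay on 3 steps with little spread, in which WT with atRA and RARaKO with vehicle shared the middle one. The difference was -0.37 ± 0.06 in WT (1.29-fold lower), the smallest of the 10 in WT, and -0.41 ± 0.06 in RARaKO (1.33-fold lower). A second probe set, in the class of 4 to 8, gave -0.13 ± 0.13 and -0.04 ± 0.13 with overlapping groups. Of 11 genes of lipopolysaccharide sensing and breakdown none was called in any of the 3 comparisons (limma), with 0, 1 and 2 at an unadjusted p under 0.05, and the median responses were 0.04 and -0.02.

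AW551984 read 0.73, 0.58 and 0.76 in WT vehicle and -0.12, -0.18 and 0.02 in WT atRA. The RARaKO arrays gave -0.02, 0.50 and 0.13 in vehicle and -0.22, -0.16 and -0.36 in atRA. The gap between the WT groups, 0.56, was the widest of any member, and the RARaKO vehicle arrays were widely spread because of set 3. The difference was -0.78 ± 0.12 in WT (1.72-fold lower) and -0.44 ± 0.12 in RARaKO (1.36-fold lower). The 2 other probe sets of the gene gave -0.14 ± 0.09 and -0.03 ± 0.12 in WT and -0.24 ± 0.09 and -0.03 ± 0.12 in RARaKO, so this gene too rests on 1 probe set.

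**Figure D3:**
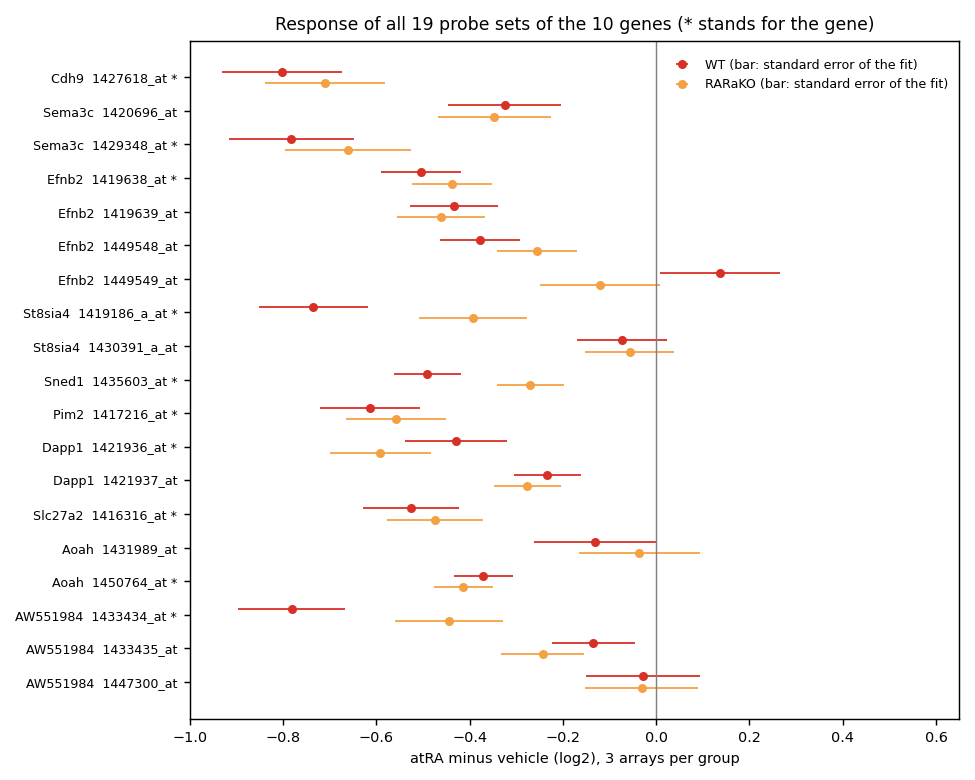
Difference between atRA and vehicle (log2) of all 19 probe sets of the 10 genes in WT and in RARaKO, 3 arrays per group; bars are standard errors of the fit and a star marks the probe set that stands for the gene. Of the 19 differences 18 lie below 0 in WT and 19 in RARaKO. Those of the second probe sets of St8sia4 and Aoah, of the third of AW551984 and of the last of Efnb2 lie within about their standard error of 0. The last of Efnb2 is the 1 above 0 in WT.

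Over all 19 probe sets, 18 differences were below 0 in WT and 19 in RARaKO, and the arrays did not overlap for 14 in each genotype. Of the 9 probe sets that were not chosen for a gene, 0 were called lower in WT and 0 in RARaKO, so the calls rest on the chosen ones. All probe sets of Sema3c and Dapp1 lay lower with atRA in both genotypes, though 1 of Sema3c overlapped in RARaKO. For Efnb2 all but 1 did so, and that 1 read 0.14 ± 0.13 in WT with overlapping groups. Those of St8sia4, Aoah and AW551984 disagreed in size. Averaged over a gene's probe sets, the WT value of St8sia4 was -0.40, that of Efnb2 -0.29, that of Sema3c -0.55, that of AW551984 -0.32 and that of Aoah -0.25.

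The responses of the 10 genes were compared between genotypes as RARaKO minus WT, again as a description, since both responses had chosen the genes. The response was nearer 0 in RARaKO for 8 of the 10, and the median of this difference was 0.08. Choosing genes on these same responses can by itself shape that count, so nothing is read from it or from the members' values that follow. The difference was largest for St8sia4 at 0.34 ± 0.16, AW551984 at 0.34 ± 0.16 and Sned1 at 0.22 ± 0.10. Dapp1 (-0.16 ± 0.15) and Aoah (-0.04 ± 0.09) ran the other way. For Cdh9 the difference was 0.09 ± 0.18 and for Pim2 0.06 ± 0.15. By limma, 0 of 37600 probe sets differed in response between genotypes (the smallest adjusted p was 1), while 1168 reached an unadjusted p under 0.05.

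The average difference between genotypes is the mean of both RARaKO groups minus the mean of both WT groups. In this balanced design it is uncorrelated with the responses where arrays vary independently, though it uses the same estimate of spread. A shift shared by all WT vehicle arrays would enter both it and the WT response, so it is not wholly free of the choice of genes. Of the 10 genes 6 were lower in RARaKO and none higher (limma, adjusted p under 0.05), beside 5.61% of all probe sets called lower, 5.28% higher and 10.9% in either direction. None of the other 4 had an unadjusted p under 0.05. Among probe sets in the class of at least 8, where 7 of the chosen ones lie, 9.2% were called lower. The median over the 10 was -0.30, against -0.01 over all probe sets. Aoah was lower by an average of -0.42 ± 0.04 (adjusted p = 7.86e-05), Sned1 by -0.47 ± 0.05 (adjusted p = 9.83e-05) and Pim2 by -0.48 ± 0.08 (adjusted p = 0.00164). St8sia4 (-0.40 ± 0.08, adjusted p = 0.00859), Efnb2 (-0.28 ± 0.06, adjusted p = 0.0117) and AW551984 (-0.32 ± 0.08, adjusted p = 0.0252) were lower as well. As folds these are 1.34, 1.38, 1.39, 1.32, 1.21 and 1.25 lower. All 6 were lower in each of the 3 sets, from -0.38 to -0.44 for Aoah and from -0.03 to -0.50 for AW551984.

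The remaining 4 genes were not called, and their intervals bound what could have been missed. Cdh9 differed by -0.10 ± 0.09 (95% interval -0.30 to 0.10, adjusted p = 0.552) and Sema3c by 0.06 ± 0.09 (-0.14 to 0.27, adjusted p = 0.765). Slc27a2 differed by 0.12 ± 0.07 (-0.04 to 0.28, adjusted p = 0.335) and Dapp1 by 0.15 ± 0.08 (-0.01 to 0.32, adjusted p = 0.242). Within sets the sign varied for Cdh9, Sema3c and Slc27a2, with set 4 against set 2 in each, and Dapp1 was higher in all 3 sets. Cdh9 and Sema3c, the 2 genes furthest below vehicle in WT, were therefore not called between genotypes. AW551984, level with Sema3c in WT at -0.78, and St8sia4, the next, were called.

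The calls differed in how far they rested on single arrays. Those of Aoah, Sned1 and Pim2 held under all 22 alternative settings tried, with adjusted p of at most 0.00815, 0.0105 and 0.0479. That of St8sia4 was lost without set 4 (0.125), and that of Efnb2 without set 2 (0.145) or set 4 (0.0721) and on averaging its probe sets (0.0521). AW551984 was called in 12 of 21 settings. Its adjusted p was 0.0547 and 0.0618 without WT vehicle replicates 2 and 4, 0.0679 without WT atRA replicate 4, 0.0559 and 0.0526 without RARaKO vehicle replicates 2 and 4, and 0.0551 without RARaKO atRA replicate 4. It was 0.18 and 0.306 without sets 2 and 4 and 0.285 with the mean of its probe sets. The number of members called lower was 4 without set 2, 6 without set 3, 3 without set 4 and 4 on averaging each gene's probe sets. None of the 9 other probe sets of these genes was called between genotypes, and 2 had an unadjusted p under 0.05.

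Split by treatment, the comparison is not free of the choice of genes, since high vehicle and low atRA values of the same arrays helped to choose them, and the counts and medians that follow are a description from which nothing is read. The RARaKO arrays were all below the WT arrays for 6 of the 10 genes in vehicle, beside 12.7% of all probe sets, and for 4 in atRA (Efnb2, Sned1, Pim2 and Aoah), beside 10.5%. The median of RARaKO minus WT over the 10 genes was -0.35 in vehicle and -0.19 in atRA. For 6 genes the RARaKO vehicle mean lay below the WT vehicle mean and above the WT atRA mean. The low 5′ minus 3′ signal of WT vehicle parts it from RARaKO vehicle too, and its part in the genotype values was not tested.

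Markers of several cell types were called between genotypes as well (limma). Over all genes 12.2% of the chosen probe sets were called in either direction, and lists with a single call lie near that share. Of the F9 markers 3 of 12 were lower in RARaKO and none was higher, beside 9.2% called lower among probe sets in the class of at least 8. They were Nr6a1 (-0.39 ± 0.07), Dnmt3l (-0.28 ± 0.06) and Pou5f1 (-0.16 ± 0.04), with limma adjusted p from 0.00422 to 0.0155. Each of these calls was lost without set 4 (0.0681, 0.137 and 0.149), and those of Dnmt3l and Pou5f1 were lost whichever set was left out (up to 0.137 and 0.156). The list means were 0.01 to 0.08 in WT vehicle, -0.03 to 0.07 in WT atRA, -0.11 to 0.11 in RARaKO vehicle and -0.16 to 0.05 in RARaKO atRA, so the groups overlapped. Of the neuron markers 3 of 7 were higher, Stmn2 (2.08 ± 0.16), Elavl4 (0.55 ± 0.07) and Tubb3 (0.68 ± 0.10), and Dcx was lower (-0.38 ± 0.07, lost without set 2 at 0.0855 and set 3 at 0.0676), with list means of -0.21 to -0.15 in WT vehicle, -0.20 to -0.03 in WT atRA, 0.20 to 0.27 in RARaKO vehicle and 0.20 to 0.26 in RARaKO atRA. The endothelial list had Cdh5 and Tek (0.36 ± 0.10, adjusted p = 0.04, lost without 1 of 10 of the arrays, up to 0.0892) higher and Esam (-0.50 ± 0.06) lower. Twist1 was lower among 8 fibroblast markers (-0.33 ± 0.07, lost without set 2 at 0.0942 and set 4 at 0.162), of which 7 were in the class of 4 to 8. Their list means did not overlap in vehicle (-0.02 to 0.04 in WT and -0.08 to -0.04 in RARaKO). In atRA they overlapped (-0.06 to 0.08 in WT and -0.05 to 0.03 in RARaKO), and the list's median genotype difference was 0.015. Laptm5 was lower among 10 blood markers, and Amn higher among 11 of extraembryonic endoderm (0.66 ± 0.12, lost without set 4 at 0.0674). The part of these cell types in the members' difference was not tested.

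**Figure D4:**
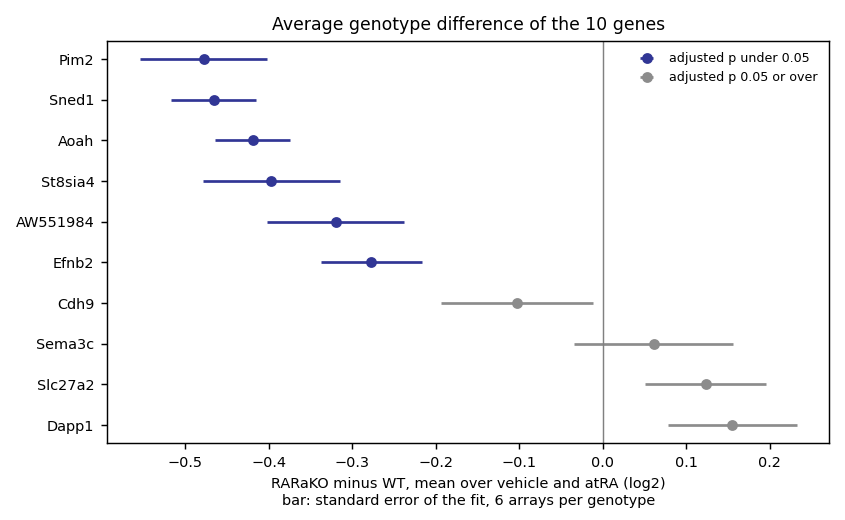
Average difference between genotypes, RARaKO minus WT over vehicle and atRA (log2), for the chosen probe set of each of the 10 genes; bars are standard errors of the fit, 6 arrays per genotype, and blue marks an adjusted p under 0.05. The 6 called genes, from Pim2 at -0.48 to Efnb2 at -0.28, lie below 0, and Cdh9, Sema3c, Slc27a2 and Dapp1 were not called.

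Across the 12 arrays the 10 genes followed each other with Pearson's r between 0.29 and 0.95 over their 45 pairs, a median of 0.76. These figures hold the treatment difference that chose the genes and are given as a description without a p. The gene with the pattern most like their mean was Id4, an inhibitor of helix-loop-helix transcription factors (r = 0.975 over 12 arrays). Hps3 (0.965), Arsa (0.956), Nedd4l (0.949) and Dapk1 (0.948) followed, of which Hps3 was called lower in WT (-0.38 ± 0.07, limma, adjusted p = 0.0231), a call lost without 1 of 5 of the 6 arrays (up to 0.132). For Cdh9 alone the closest were Armcx3 (0.948), Cited2 (0.938) and Id4 (0.934).

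Genes outside the 10 were also called lower with atRA, with separate arrays. Such genes, members included, numbered 18 in WT and 11 in RARaKO, and the non-members among the 10 most negative of each follow. In WT Id4 was lower by -0.63 ± 0.08 (limma, adjusted p = 0.00276) and Neurog3, a fate factor of endocrine pancreas, by -0.59 ± 0.10 (adjusted p = 0.0183). The call of Id4 held without each of the 6 WT arrays (up to 0.0218) but not without set 3 (0.19) or set 4 (0.0878), while that of Neurog3 was lost without 1 of 4 of them (up to 0.0978). In RARaKO Nr5a1, a nuclear receptor of adrenal and gonad (-0.54 ± 0.08, adjusted p = 0.0126), Myc and Kctd12b (-0.48 ± 0.09, adjusted p = 0.0384) came between Dapp1 and Aoah. Id4 (-0.45 ± 0.08, adjusted p = 0.0444), Foxd3, a pluripotency factor (-0.44 ± 0.08, adjusted p = 0.0297), Clvs2 (-0.40 ± 0.07, adjusted p = 0.0295) and Tyro3, a receptor kinase (-0.37 ± 0.07, adjusted p = 0.0434), completed the list. All of these RARaKO calls were lost when 1 of 3 to 6 of the 6 arrays was left out, with adjusted p up to 0.0896 for Nr5a1, 0.156 for Kctd12b, 0.255 for Id4, 0.132 for Foxd3, 0.161 for Clvs2 and 0.182 for Tyro3.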

How the data were processed

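Total RNA of 12 F9 samples was hybridised to Affymetrix mouse arrays (12 arrays, 3 per group). The deposited log2 values per probe set came from GCRMA, per the submitters' processing notes, with no version or log base given; they were taken as log2 and were found centred on the median of each probe set over the 12 arrays. Gene symbols came from the platform annotation after 61 controls of 37661 probe sets were left out (30488 with 1 symbol, 784 with several and 6328 with none, the last 2 kinds tested but not named). Differences were fitted by lmFit and eBayes of limma 3.58.1, run in R 4.3.3 (a mean per group, all 12 arrays, no block, 8 residual and 4.6 prior degrees of freedom), two-sided, with Benjamini-Hochberg adjustment over 37600 probe sets and 0.05 as threshold; the fit was checked on data with known answers. Where a gene had several probe sets, the highest level class, then the plain suffix, then the lowest number chose 1. The class (2, 4 or 8 and over) came from the spacing of the numbers, leaving out values under 0.001 in size. Set numbers were not used for pairing in the main fit. Of 18 same-number pairs of arrays, 15 had deviations from their group means correlated over 0.1. The median r was 0.192, from 0.0186 to 0.497, against a median of -0.11 for pairs with other numbers. Arrays of a set thus shared some variation, which the main fit left in its estimate of spread. A fit with the set as a block is among the alternatives.

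Named are all members, the called genes of each list (the 4 with the smallest p where a comparison had more), the non-members among the 10 most negative called responses of either genotype, the 5 genes most like the members' mean and the 3 most like Cdh9, and Rara. The members and the lists were chosen with earlier results of these data known. Alternatives were a set block, other scalings, a level filter, a robust prior, array weights, fits without arrays or sets, fits of 1 genotype, and the mean of all probe sets. The number of arrays limits the precision.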

Additional observations from a re-analysis of the deposited data

How the results depend on the processing

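The direction of the members' responses did not depend on the settings tried: all 167 values in each genotype stayed below 0, from -0.92 to -0.25 in WT and from -0.84 to -0.21 in RARaKO, and 7 and 6 of them moved by more than 1 SD. The counts over all probe sets did. In WT the 214 calls became 339 with the replicate block and 382 with array weights, and 40 to 128 with an array or a set left out; the 32 lower ones became 7 to 13 without an array and 1 to 4 without a set. In RARaKO the 99 calls became 167 with the replicate block, 14 in a fit of its 6 arrays, and 2 to 69 with an array or a set left out; the 18 lower ones became 1 to 11 without an array and 0 without a set or in its 6 arrays alone. With the replicate block 9 members were called lower in WT and 6 in RARaKO, on the values that chose them. Calls of the average genotype difference were 4093, became 2313 on averaging each gene's probe sets, where fewer features are tested, and 1579 to 3810 with an array or a set left out; with the replicate block they were 5575, and the members' calls were the same 6. The difference of responses had 0 calls in every setting (limma). The cause of these shifts was not tested where no construction shows it. A fit of 1 genotype gives no average difference, and St8sia4, Dapp1 and AW551984 have no value under the level filter.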
